A study of Rattus norvegicus with 36 samples.

Results

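The mitochondrial genome was represented here by 9 genes that encode subunits of the respiratory chain, namely Mt-nd1, Mt-nd2, Mt-nd4 and Mt-nd5 of complex I, Mt-cyb of complex III, Mt-co1, Mt-co2 and Mt-co3 of complex IV, and Mt-atp6 of complex V. They were selected by Ensembl identifier, with a rule that uses no measured value, from the 31546 genes of the count tables, and all 9 were among the 15641 genes that passed the filter on low counts. RNA of the nucleus accumbens, the ventral part of the striatum, was sequenced from male Sprague-Dawley rats that the labels give as 8 weeks old. All rats received 3 injections per day for 5 days, and tissue was taken 24 h after the last injection. Sal–Sal rats received 15 injections of saline. Coc–Coc rats received 15 injections of cocaine (20 mg/kg each). Sal–Coc rats received saline and, on the last day, 3 injections of cocaine, with 13 saline injections by the labels and 12 by the methods of the study. Each group comprised 3 pools, each of 2 rats according to the methods, whereas the labels name a single rat as the source of each library. The phenotype label of the Coc–Coc samples reads vulnerable although their description reads tolerant, and that of the Sal–Coc samples reads saline, so groups were taken from titles and treatments.

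Mitochondria keep a small circular genome of their own, present in many copies per cell, that encodes a few core subunits of the respiratory chain, while all other subunits are encoded in the nucleus and imported. Each strand of this genome is transcribed as a long precursor that is cut into individual RNAs, and most of the resulting messenger RNAs carry short poly(A) tails. Complexes I, III and IV pass electrons to oxygen and pump protons, and complex V uses the proton gradient to make ATP. Neurons of the striatum depend on this supply to maintain their ion gradients.

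The authors deposited 36 tables of raw counts, 4 technical replicates for each of the 9 pools. Technical replicates were summed, which gave between 36372166 and 42449841 counts per pool, and the pool was the unit of replication (n = 3 per group). The lowest count of any of the genes in a pool was 3864 (Mt-nd4), and the other 8 had at least 186747 counts in every pool. Sampling noise was therefore small beside the differences in level between pools. In bulk tissue, a lower number of mitochondria or of cells rich in them cannot be told apart from less RNA per mitochondrion. The libraries were made from poly(A) RNA, so only the polyadenylated part of these transcripts was measured. The tables pair no identifiers with symbols, so the labelled tissue could not be checked against marker genes, and the names of the 9 genes are those given with their identifiers. Gene lengths were not used here, so levels are compared between samples and not between genes.

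Together the 9 genes took 9.11% to 16.5% of all counted reads of a pool. Their summed share was 16.5%, 12.1% and 13.3% in Sal–Sal pools 1 to 3, with a mean of 13.9% ± 2.27 (SD, n = 3). It was 9.11%, 11.8% and 13.1% in the Sal–Coc pools, with a mean of 11.3% ± 2.02 (SD, n = 3). In the Coc–Coc pools it was 15.5%, 11.6% and 12.4%, with a mean of 13.2% ± 2.02 (SD, n = 3). The highest share of the series was in Sal–Sal pool 1 and the lowest in Sal–Coc pool 1, and the ranges of the 3 groups overlapped. The 4 technical replicates of a pool differed far less, with an SD between 0.0250 and 0.0519 percentage points.

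**Figure D1:**
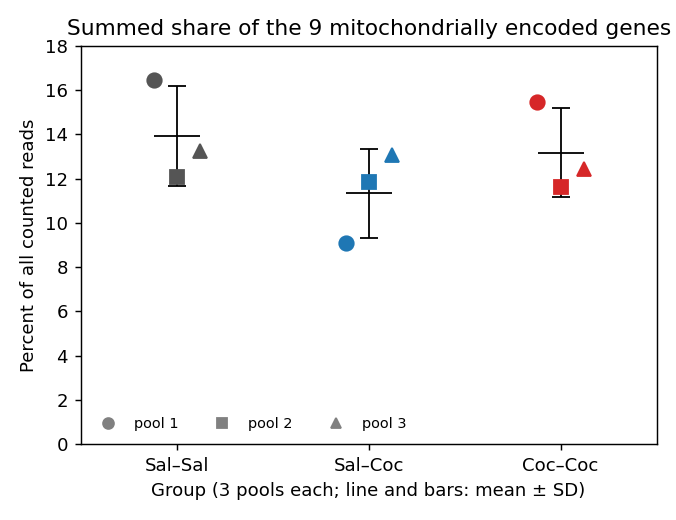
Summed share of the 9 genes, in percent of all counted reads (vertical axis), in each pool of the 3 groups (horizontal axis); symbols mark the pool number, and lines and bars the group mean and SD. Pool 1 was the highest pool in Sal–Sal (16.5%) and Coc–Coc (15.5%) and the lowest in Sal–Coc (9.11%), and the 3 groups overlapped.

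The mean summed share of Sal–Coc differed from that of Sal–Sal by -2.60 percentage points, with p = 0.2 by a two-sided exact permutation test. Coc–Coc differed from Sal–Sal by -0.766 points (exact permutation p = 0.6) and from Sal–Coc by 1.84 points (exact permutation p = 0.5). With 3 pools against 3, the smallest p this test can give is 0.1, so it could not have passed 0.05. The first of these differences was larger than the SD of the pools of either group (2.02 and 2.27 points), the other 2 were smaller, and the ranges of the pools overlapped in all 3. Single pools decided much of their size. The difference of Sal–Coc from Sal–Sal was -1.34 points without Sal–Sal pool 1 and -1.49 points without Sal–Coc pool 1. That of Coc–Coc from Sal–Sal turned to 0.499 points without Sal–Sal pool 1 and was 0.00132 points without Coc–Coc pool 2. That of Coc–Coc from Sal–Coc was 0.729 points without Sal–Coc pool 1 and 0.697 points without Coc–Coc pool 1.

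In every pool 8 of the 9 genes were among the 10 genes with most counts. Mt-nd4 (ENSRNOG00000029707) was the exception. It ranked between 817 and 2379 and held 1.02% to 1.19% of the median count of the other 8. Nuclear chromosomes carry copies of stretches of the mitochondrial genome, and the authors removed reads that mapped more than once, so counts of all 9 genes are uncertain to the extent that reads were lost this way. The part of this step in the low count of Mt-nd4 was not tested. Its pattern over the pools, on its own scale, was close to that of the others.

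Complex I (NADH dehydrogenase) is the entry point of electrons from NADH, and its mitochondrially encoded subunits form the core of the proton-pumping membrane arm. Levels are given as CPM, that is counts relative to a library size scaled by TMM normalization, and are listed in the order of pools 1 to 3. Mt-nd1 (ENSRNOG00000030644), whose product lies next to the quinone site, was at 16092, 9995 and 11982 CPM for Sal–Sal, 6387, 9185 and 11363 CPM for Sal–Coc, and 14258, 9624 and 10995 CPM for Coc–Coc. The mean ± SD was 12689.6 ± 3109.7 CPM for the Sal–Sal pools, 8978 ± 2495 CPM for Sal–Coc and 11626 ± 2381 CPM for Coc–Coc (n = 3 each). Of the 9 genes it had the widest range over all pools, 2.52-fold, and the ranges of the groups overlapped.

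Mt-nd2 (ENSRNOG00000031033) encodes a membrane subunit of complex I. It was at 19630, 11556 and 14961 CPM for Sal–Sal, 8167, 12606 and 15241 CPM for Sal–Coc, and 17799, 12267 and 14168 CPM for Coc–Coc. Mt-nd5 (ENSRNOG00000029971), another proton-pumping subunit, was at 9539, 5819 and 7168 CPM for Sal–Sal, 4378, 5827 and 7269 CPM for Sal–Coc, and 8305, 5907 and 6922 CPM for Coc–Coc. For both genes pool 3 of Sal–Coc lay above pools 2 and 3 of Sal–Sal, so the groups were not separated. The low-count gene Mt-nd4, a further subunit of the pumping arm, was at 213, 125 and 156 CPM for Sal–Sal, 90.6, 130 and 165 CPM for Sal–Coc, and 191, 133 and 152 CPM for Coc–Coc. The order of the pools within each group was the same for all 4 complex I genes.

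Complex III hands electrons from ubiquinol to cytochrome c, and Mt-cyb (ENSRNOG00000031766) encodes its cytochrome b. Its levels were 19889, 13151 and 15213 CPM for Sal–Sal, 9842, 12792 and 14773 CPM for Sal–Coc, and 16781, 12330 and 15076 CPM for Coc–Coc. Sal–Coc pool 1 was the lowest of all 9 pools, whereas Sal–Coc pool 3 stood between the Sal–Sal pools.

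Complex IV (cytochrome c oxidase) transfers electrons to oxygen, and its catalytic core consists of the products of Mt-co1, Mt-co2 and Mt-co3. Mt-co1 (ENSRNOG00000034234), which encodes the subunit with the oxygen-binding centre, was at 48800 CPM, 34701 CPM and 34717 CPM for Sal–Sal, 23837, 31738 and 34391 CPM for Sal–Coc, and 41602, 31399 and 32384 CPM for Coc–Coc. It was the one gene of the 9 whose Sal–Coc pools all lay below all Sal–Sal pools, and the nearest pools of the groups were 34391 and 34701 CPM. Pools did not overlap between these groups for 36.1% of all genes tested. Mt-co1 pools overlapped between Coc–Coc and each of the other groups.

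Mt-co2 (ENSRNOG00000030371) encodes the subunit that accepts electrons from cytochrome c. It was at 18282, 13475 and 12967 CPM for Sal–Sal, 9121, 12985 and 12931 CPM for Sal–Coc, and 15543, 12390.4 and 12056 CPM for Coc–Coc. With 2.00-fold between the lowest and the highest pool, its range was the narrowest of the 9. Mt-co3 (ENSRNOG00000030700), the remaining core subunit, was at 17477, 11189 and 13638 CPM for Sal–Sal, 8345, 11246 and 12717 CPM for Sal–Coc, and 14501, 10792 and 12407 CPM for Coc–Coc.

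Complex V is the ATP synthase, and Mt-atp6 (ENSRNOG00000031979) encodes the subunit that forms its proton channel. Mt-atp6 was at 30057, 19053 and 23221 CPM for Sal–Sal, 14167, 20030 and 22631 CPM for Sal–Coc, and 27671, 19498 and 21026 CPM for Coc–Coc. Again the highest value was that of Sal–Sal pool 1 and the lowest that of Sal–Coc pool 1, as for all 9 genes.

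**Figure D2:**
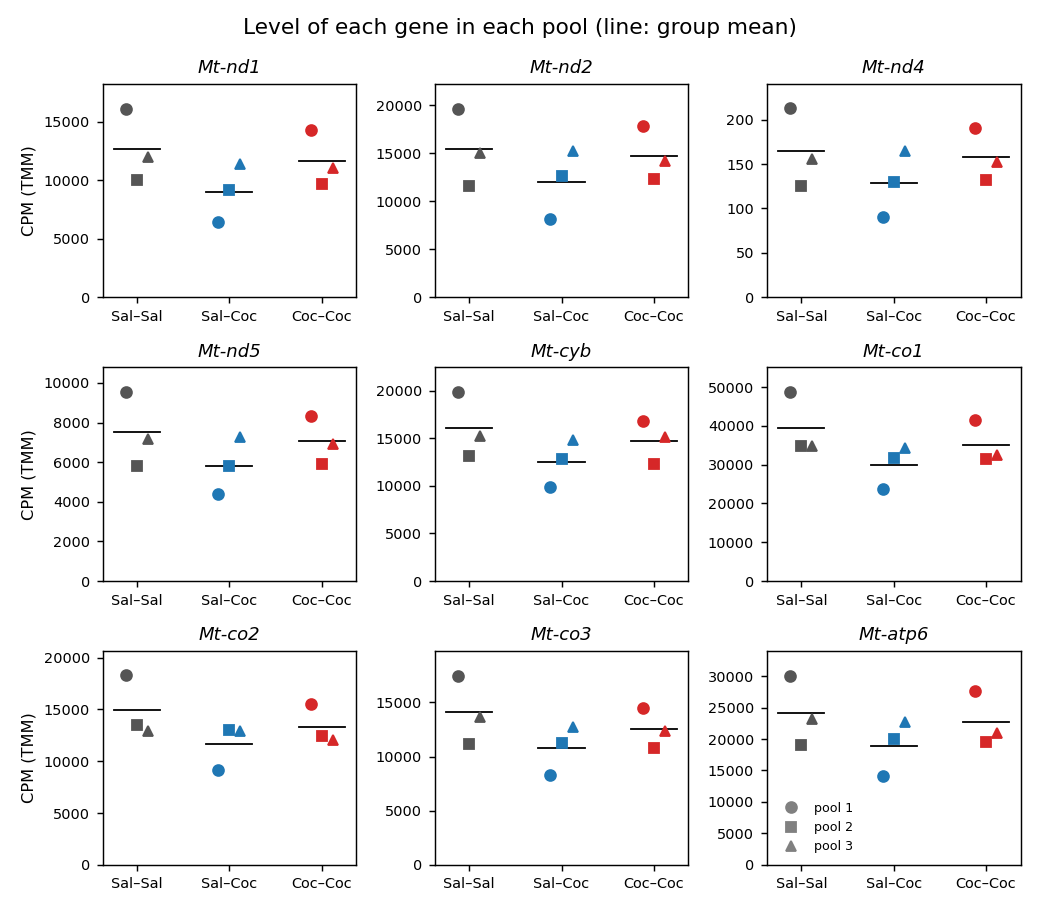
Level of each gene (vertical axes, CPM on TMM-scaled library sizes, each starting at 0) in each pool of the 3 groups (horizontal axes); symbols mark the pool number and lines the group means. In all 9 panels Sal–Sal pool 1 was the highest and Sal–Coc pool 1 the lowest pool, and the group means ran from Sal–Sal through Coc–Coc to Sal–Coc, with overlapping pools except for Mt-co1 in Sal–Coc against Sal–Sal.

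For each gene the order of the group means was Sal–Sal, Coc–Coc, Sal–Coc, from highest to lowest. The pools of neighbours in this order overlapped for all 9 genes.

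The comparison of Sal–Coc vs. Sal–Sal addresses acute exposure to cocaine. All 9 genes had lower estimates in Sal–Coc, with log2 fold changes from -0.50 (Mt-nd1) to -0.35 (Mt-atp6) and a median of -0.37, that is a fold of 0.776. None passed the test, and 0 of 9 had an adjusted p under 0.05 by the quasi-likelihood test of edgeR after Benjamini-Hochberg adjustment, where 16.4% of all genes tested did. By the same test, 0 of 9 had an unadjusted p under 0.05, against 33.8% of all genes. After adjustment DESeq2 and limma-voom also called 0 of 9, but unadjusted 4 of 9 were under 0.05 by DESeq2, namely Mt-nd1 (p = 0.029), Mt-co1 (0.030), Mt-co3 (0.044) and Mt-co2 (0.047). Mt-nd1 was also under it by edgeR when no filter on low counts was used (unadjusted p = 0.048). Leaving out Sal–Sal pool 2 or Sal–Coc pool 3 put 2 of 9 under it. The number called among all genes depended on single pools, at 2572 with all pools but 982 without Sal–Sal pool 1, 1203 without Sal–Coc pool 2 and 1201 without Sal–Coc pool 3. The lowest adjusted p was that of Mt-nd1 (0.196, edgeR; SE of the log2 fold change 0.25), for which the 95% interval of the log2 fold change ran from -1.06 to 0.07. For Mt-co1 the log2 fold change was -0.39 (SE 0.22, 95% interval -0.88 to 0.09) with an adjusted p of 0.230 by edgeR. For Mt-cyb it was -0.37 (SE 0.21, 95% interval -0.84 to 0.10) with an adjusted p of 0.253 by edgeR.

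The intervals thus reached from a loss of close to 1 log2 unit to a small gain. The other 6 genes had adjusted p-values between 0.234 and 0.375 by edgeR. On the log2 scale the SE of the 9 estimates was 0.20 to 0.27, against a median SE of 0.13 over all genes tested. The median log2 fold change over all genes was -0.01, and 51.3% of all genes lay below 0. In the ranking of all genes by log2 fold change the 9 genes stood between the percentiles 6.14 and 12.1, as a description. The size of the estimate rested on both pools numbered 1, since the median was -0.18 without Sal–Sal pool 1 and -0.20 without Sal–Coc pool 1.

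The comparison of Coc–Coc vs. Sal–Sal addresses repeated exposure. The estimates were small, from -0.17 (Mt-co3 and Mt-co1) to -0.06 (Mt-nd4 and Mt-nd2), with a median of -0.13 or a fold of 0.916. None of the 9 passed the test (adjusted p 0.628 to 0.902 by the quasi-likelihood test of edgeR after Benjamini-Hochberg adjustment), where 10.9% of all genes tested did. Unadjusted, 0 of 9 were under 0.05, against 30.1% of all genes, and DESeq2 and limma-voom called 0 of 9 after adjustment. The background here too rested on single pools, since the 1702 genes called became 292 without Sal–Sal pool 1, 174 without Coc–Coc pool 2 and 0 without Coc–Coc pool 3 by edgeR, a fit in which the unadjusted p was under 0.05 for 3533 genes and for which no other tool was run. No gene had pools that did not overlap, against 36.7% of all genes.

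The 95% intervals of the log2 fold change extended 0.45 to 0.60 to either side of the estimates. Mt-co2 had the lowest upper limit (0.29). Mt-nd1 had a log2 fold change of -0.13 (SE 0.25) with a 95% interval from -0.69 to 0.44. The estimates of all 9 genes were below 0, as were 51.5% of all genes, but all 9 turned positive, from 0.03 to 0.18, when Sal–Sal pool 1 was left out. This comparison shares the Sal–Sal pools with the previous one, and the common sign therefore adds nothing to it.

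The comparison of Coc–Coc vs. Sal–Coc addresses the difference between rats with repeated and with acute exposure. Estimates were higher in Coc–Coc for all 9 genes, from 0.19 (Mt-co2) to 0.37 (Mt-nd1), with a median log2 fold change of 0.26 or a fold of 1.20. None passed the test (adjusted p 0.647 to 0.780 by the quasi-likelihood test of edgeR after Benjamini-Hochberg adjustment), which called 0 of all genes tested (0%). Unadjusted, 0 of 9 and 1453 of all genes (9.29%) were under 0.05 by edgeR, while DESeq2 called 145 genes and limma-voom 0, none of them among the 9. No gene of the 9 had pools that did not overlap, against 17.2% of all genes.

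For Mt-nd1 the 95% interval of the log2 fold change ran from -0.19 to 0.94, and for Mt-co2 from -0.26 to 0.64. Log2 fold changes above 0 were found for 47.6% of all genes. The median of the 9 was 0.09 without Sal–Coc pool 1 and 0.15 without Coc–Coc pool 1. It shares its pools with both other comparisons.

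**Figure D3:**
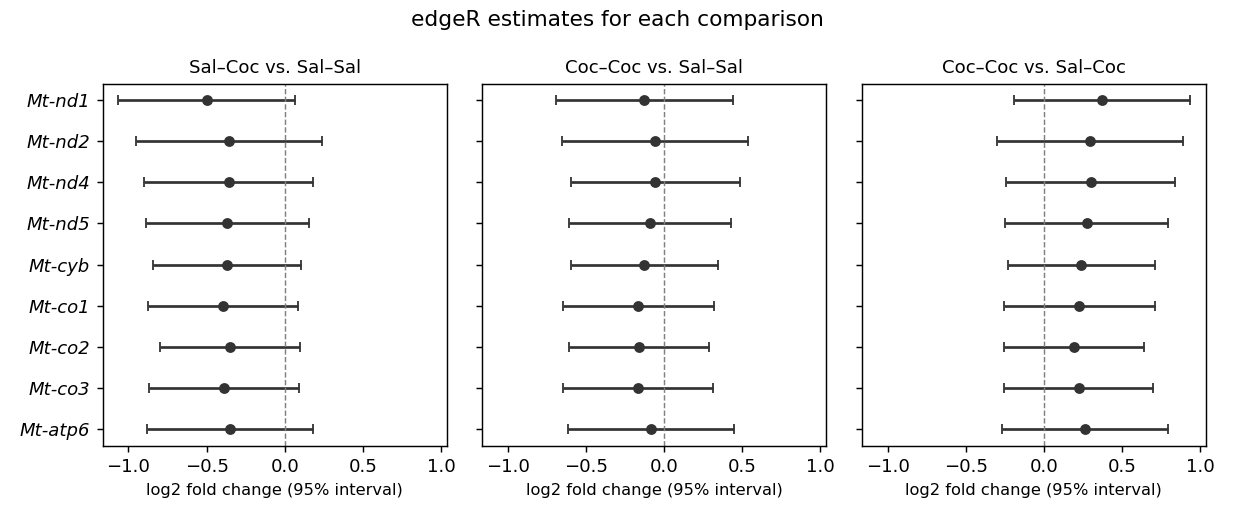
Log2 fold change (horizontal axes) of each gene (vertical axis) in the 3 comparisons, with 95% intervals from edgeR's quasi-likelihood fit over all 9 pools. Every interval crossed 0, and the estimates lay between -0.50 and -0.35 in Sal–Coc vs. Sal–Sal, between -0.17 and -0.06 in Coc–Coc vs. Sal–Sal (a sign that turned without Sal–Sal pool 1), and between 0.19 and 0.37 in Coc–Coc vs. Sal–Coc.

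**Figure D4:**
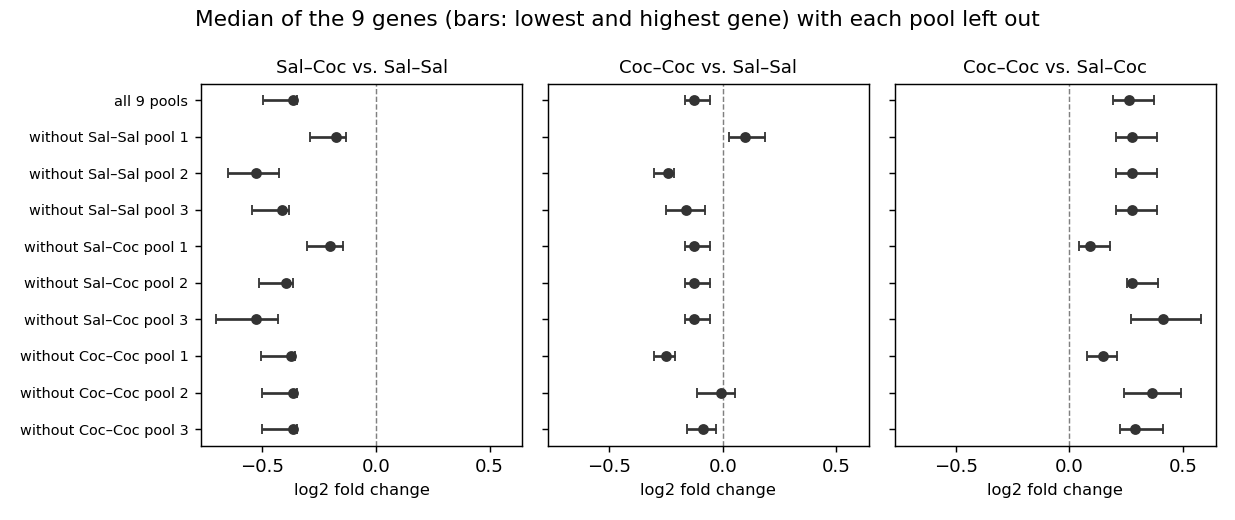
Median log2 fold change of the 9 genes (points; bars reach from the lowest to the highest gene; horizontal axes) in the 3 comparisons, from the fit to all 9 pools and from fits lacking 1 pool (vertical axis). The median of Coc–Coc vs. Sal–Sal moved from -0.13 to 0.10 without Sal–Sal pool 1, and that of Coc–Coc vs. Sal–Coc from 0.26 to 0.09 without Sal–Coc pool 1.

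The 9 genes varied more between pools of the same group than most genes did. Their within-group SD of log2 CPM was 0.26 (Mt-co2) to 0.38 (Mt-nd2), against a median of 0.16 over the 15641 genes tested and of 0.12 over the 2213 genes at 100 CPM or more. They stood between the percentiles 70.8 and 83.3 of all genes tested and between 90.4 and 97.2 of the genes at 100 CPM or more. They largely varied together. The within-group SD of the log2 ratio of each gene to the other 8 was 0.05 to 0.11. For single pairs of the 9 genes it reached 0.19 (Mt-nd2 to Mt-co2). The SD of such ratios was not computed for other genes. A ratio within a pool does not depend on the library size or its scaling. The pool with the highest summed share, Sal–Sal 1, also had the lowest TMM factor (0.915) and the fewest genes with a count (18752). The pool with the lowest share, Sal–Coc 1, had the highest factor (1.08) and the most genes with a count (19528). These quantities are not independent, since reads taken by the 9 genes are lacking for all others. With the 9 genes left out of the library size and of TMM, their median log2 fold change was -0.373 for Sal–Coc vs. Sal–Sal. It was -0.121 for Coc–Coc vs. Sal–Sal and 0.275 for Coc–Coc vs. Sal–Coc. In the main fit the medians were -0.366, -0.126 and 0.263. The part of other library composition in these levels was not tested.

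**Figure D5:**
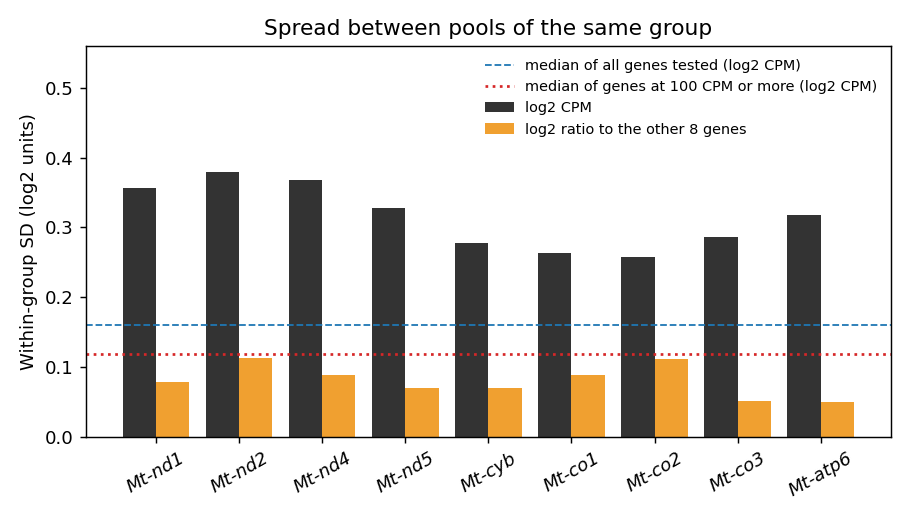
Within-group SD over pools (vertical axis, log2 units) of the level of each gene (dark bars) and of its ratio to the other 8 genes (orange bars); lines mark the median SD of the level over all genes tested (0.16) and over genes at 100 CPM or more (0.12). All dark bars stand above both lines and all orange bars below both, but the lines are SDs of levels and give no background for ratios.

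The division of the counts among the complexes was similar in the 3 groups. Of the counts of the 9 genes, the 4 complex I genes took 24.6% ± 1.35 for Sal–Sal, 24.1% ± 1.68 for Sal–Coc and 25.4% ± 0.806 for Coc–Coc (SD, n = 3 each). Mt-cyb of complex III took 11.1% ± 0.175, 11.3% ± 0.350 and 11.2% ± 0.748 in the same order. The 3 complex IV genes took 47.5% ± 2.11, 47.6% ± 1.70 and 46.3% ± 1.26. Mt-atp6 of complex V took 16.7% ± 0.662, 17.1% ± 0.232 and 17.2% ± 0.446. No gene's share of these counts separated any groups without overlap, and the group means of each complex differed by less than the largest SD of its groups.

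The largest difference between Sal–Coc and Sal–Sal in this division was that of Mt-nd1, which took 8.03% ± 0.550 of the counts in Sal–Coc, against 8.76% ± 0.315 in Sal–Sal and 8.77% ± 0.343 in Coc–Coc (SD, n = 3 each). The ratio of Mt-nd1 to Mt-nd4 was the steadiest of the 36 ratios between pairs of the genes, with a within-group SD of 0.03 on the log2 scale, against a median of 0.09 and a highest SD of 0.19 (Mt-nd2 to Mt-co2). In pools 1 to 3 this ratio was 75.7, 79.6 and 76.8 for Sal–Sal, 70.5, 70.6 and 68.9 for Sal–Coc, and 74.8, 72.6 and 72.4 for Coc–Coc. All 3 groups were thus separated without overlap, with means of 77.4 ± 2.06, 70.0 ± 0.968 and 73.3 ± 1.32 (SD, n = 3 each). The nearest pools of Sal–Coc and Coc–Coc were 70.6 and 72.4. Mt-nd4 had only 3864 to 7207 counts per pool, so counting error weighs more in its ratios than in those of the other genes. The part of counting error in the spread of this ratio was not tested, nor was the reason for the low count of Mt-nd4. For pairs of genes outside the 9, the share that separates all 3 groups was not computed.

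Mt-nd1 was also lower relative to the other 2 complex I genes in every Sal–Coc pool. Its ratio to Mt-nd2 was 0.820, 0.865 and 0.801 in Sal–Sal, and 0.782, 0.729 and 0.746 in Sal–Coc. Its ratio to Mt-nd5 was 1.69, 1.72 and 1.67 in Sal–Sal, and 1.46, 1.58 and 1.56 in Sal–Coc. The groups also did not overlap for its ratio to Mt-atp6, with means of 0.525 ± 0.00972 in Sal–Sal and 0.470 ± 0.0276 in Sal–Coc (SD, n = 3 each). For its ratios to Mt-cyb and the 3 complex IV genes they did overlap.

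These ratios were picked after their values were seen and are a description, without a test. Of the 36 pairs, 4 did not overlap between Sal–Coc and Sal–Sal, all of them with Mt-nd1, where the same was found for 26.7% of the 1081 pairs of the 47 other genes with at least 1000 CPM. Between Coc–Coc and Sal–Sal the number was also 4 of 36, against 19.9% of those pairs. Besides the ratio of Mt-nd1 to Mt-nd4, these were the ratios of Mt-nd2, Mt-nd4 and Mt-nd5 to Mt-co3, which were higher in Coc–Coc. Mt-nd5 to Mt-co3, for example, was at 0.546, 0.520 and 0.526 in Sal–Sal and at 0.573, 0.547 and 0.558 in Coc–Coc. Between Coc–Coc and Sal–Coc 2 of 36 did not overlap, against 17.1%, and both involved Mt-nd1. Mt-nd4, at a mean of 150.5 CPM over the 9 pools, lies below the 1000 CPM set for the background. Its pairs among the 36 thus have no background of like level.

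Across the 9 pools, the gene outside the 9 whose log2 CPM was most like their mean log2 CPM was ENSRNOG00000031053 (Pearson's r = 0.987), followed by ENSRNOG00000033299 (r = 0.985). The next 3 had r between 0.939 and 0.965. Of 13626 genes compared, 13 (0.0954%) had r above 0.9 and 3 (0.022%) had r below -0.9, and the 9 genes themselves had r of 0.942 (Mt-co2) to 0.995 (Mt-nd1) with the mean of which they are a part. These values describe 9 pools that share library preparation and scaling, and the tables give no symbols for the matching genes. Only the 9 genes were taken out of this ranking. Other mitochondrially encoded genes stayed in it, and the matching genes may be among them.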

How the data were processed

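Libraries of nucleus accumbens poly(A) RNA were sequenced. The authors trimmed reads, aligned them with STAR to the rat genome of Ensembl release 84, removed reads mapping more than once, and deposited raw counts per gene for each of 4 technical replicates of 9 pools. The submitters' processing notes also name bcl2fastq 2.17.1.14 and HTSeq 0.5.3. The strand setting of the counting is not given in the sources used here. Technical replicates were summed per pool. Totals per pool were 36372166 to 42449841 counts, and every column of counts was used. The labels and the methods differ on the number of rats per pool, and in either case p-values measure only the spread between these pools.

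All 9 pools entered a single quasi-likelihood fit (edgeR 4.0.16, R 4.3.3) after TMM normalization and a filter on low counts (filterByExpr), which left 15641 genes, and p-values were adjusted over these after Benjamini and Hochberg, with a threshold of 0.05. For log2 CPM a prior count of 0.5 was used. Summed shares were compared with exact permutation tests (scipy 1.17.1). DESeq2 1.42.0, limma-voom (limma 3.58.1), other normalizations and filters, and fits without each pool served as alternatives. The edgeR test was also run on simulated counts, drawn independently for each gene. These hold no shift of a pool shared by many genes, so they do not bear on that case.

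The rule for the members uses no measured value, but the members and lists were chosen with earlier results of these data known. The genes named are the 9 members and, by the highest Pearson r with their mean, the genes most like them; of these 5, the first 2 are printed. Lists of nuclear pathway and cell type marker genes could not be applied, because the identifiers are not paired with symbols in the tables or references used here. No sequence is printed.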

Additional observations from a re-analysis of the deposited data

How the results depend on the processing

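Under 11 alternatives in normalization, filter, tool, samples, block and technical replicates, the 9 genes had the same direction as in the main fit and 0 were called. Log2 fold changes ranged from -0.53 to -0.26 (adjusted p 0.101 to 0.470) for Sal–Coc vs. Sal–Sal, from -0.19 to -0.01 (0.559 to 0.983) for Coc–Coc vs. Sal–Sal, and between 0.15 and 0.39 (0.593 to 0.844) for Coc–Coc vs. Sal–Coc, the p-values being those of edgeR, DESeq2 and limma-voom. Fits lacking 1 pool gave 0 calls and ranges of -0.70 to -0.13, -0.30 to 0.18 and 0.04 to 0.58. The 13 estimates that changed sign were all for Coc–Coc vs. Sal–Sal without Sal–Sal pool 1 (9 genes) or Coc–Coc pool 2 (4 genes). Over these fits the log2 fold change ranged from -0.30 to 0.10 for Mt-nd1, -0.23 to 0.17 for Mt-nd2, -0.22 to 0.18 for Mt-nd4, -0.24 to 0.13 for Mt-nd5, -0.25 to 0.070 for Mt-cyb, -0.30 to 0.033 for Mt-co1, -0.28 to 0.027 for Mt-co2, -0.30 to 0.033 for Mt-co3 and -0.25 to 0.12 for Mt-atp6. The difference in summed share ranged from -1.91 to 0.499 points there, from -3.53 to -1.34 points for Sal–Coc vs. Sal–Sal and from 0.697 to 2.70 points for Coc–Coc vs. Sal–Coc. Over all genes tested, deviations of same-numbered pools from their group means had a mean r of -0.0198 over 9 pairs (-0.323 to 0.255). For other numbers the mean r was 0.0108 over 18 pairs. The same pool number had the lowest share of the 9 genes' counts in all 3 groups for 3 of the 9 genes (Mt-nd5, Mt-co1 and Mt-co2). No background was computed for this count. Shares of a common total also depend on each other, so the count is only a description. A mean r near 0 cannot show that the numbers mark nothing shared, and what they stand for was not tested. With the replicate block, the medians of the 9 genes were -0.34, -0.12 and 0.24, again with 0 of them called. Over all genes the fit with the block called 2084 instead of 2572 for Sal–Coc vs. Sal–Sal. Fits lacking other pools than those named with the comparisons also moved the number called over all genes for Coc–Coc vs. Sal–Sal by over 1.5 times, to 837 (Coc–Coc pool 1), 984 (Sal–Sal pool 2) and 1052 (Sal–Coc pool 2). In the main edgeR fit the number called over all genes for Coc–Coc vs. Sal–Sal was 1702. It was 883 with library sizes alone, 1126 with the block, 1057 from 1 technical replicate and 2812 by DESeq2. For Sal–Coc vs. Sal–Sal the main fit called 2572, against 1445 with only the 6 pools compared. For Coc–Coc vs. Sal–Coc it called 0, against 5 without a filter and 3 from 1 technical replicate. Alternatives for the nuclear gene lists were not run, as the identifiers could not be paired with symbols. The precision of the fold changes is set by the 3 pools per group and not by the depth.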
